A study of Mus musculus with 16 samples.

Results

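Schwann cells are the glia of peripheral nerves, and skeletal muscle holds them along its nerve branches and at its neuromuscular junctions. Myelinating Schwann cells wrap motor and large sensory axons in a sheath built of a few dedicated proteins and lipids, under control of the transcription factors Sox10 and Egr2. After loss of contact with the axon they lower these myelin genes and raise others, among them Jun, Gdnf, Btc and Ngfr. Expression of 6 marker genes of these cells was followed here in mouse quadriceps: Sox10, Mbp, Pmp22, Mag, Prx and S100b. They were taken by symbol from the count table, and 5 of the 6 had a row among its 13320 genes. Mag, the myelin-associated glycoprotein, had none and was not analysed here.

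The 16 libraries formed 4 groups of 4, all from male CD2F1 mice aged 8 weeks at the start. The tumour, C26, is a colon carcinoma line of the mouse widely used to provoke muscle wasting. Splenic C26 mice had the cells placed in the spleen, as a model of spread to the liver, and sham mice were operated on and given saline. Subcutaneous C26 mice had them placed beneath the skin, and what control mice received is not stated. Splenic C26 and sham libraries share one title prefix and subcutaneous C26 and control libraries another, so each tumour group was set against its own tumour-free group, and in sham against control the prefix and the operation cannot be told apart. Total counts were 25.9 to 34.9 M per library. Nothing in the labels ties each library to an animal of its own, so the p-values rest on a spread between samples that could be technical only. Genes of other tissues stood out in some libraries: the sum of 5 hepatocyte genes was 113 CPM (read counts per M of TMM-scaled library size) in splenic C26 replicate 1 and 25.6 to 195 CPM in control libraries, but at most 3.20 CPM in each of the others. A set of 3 blood and proliferation genes reached 70.98 CPM in splenic C26 replicate 3, 123 CPM in subcutaneous C26 replicate 4 and 26 CPM in control replicate 1. A fit that left out splenic C26 replicates 1 and 3, subcutaneous C26 replicate 4 and control replicate 1 is called the fit without 4 libraries. Control replicate 1 had the lowest hepatocyte sum of the control libraries, 25.6 CPM. The other control libraries, with up to 195 CPM, were kept. That fit therefore does not remove hepatocyte genes from the control group. The 6 muscle fibre genes summed to 84072 to 227951 CPM across all libraries, so the defining genes of the labelled tissue were abundant.

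For 3 of the measured genes the 250 bases before each RefSeq start (GRCm38.p6) are shown, because both Sox10 and Egr2 are known to act on myelin genes and Sox10 is itself one of the genes measured. Mbp was not searched and Sox10 had no promoter entry, so the 3 do not stand for all measured markers. Short cores were searched on both strands, ACAANG for SOX factors and GTGGGNG for EGR factors, and capitals mark a match. Of 32536 mouse promoter windows of this length, 36.2% hold the SOX core and 28.1% the EGR core. Prx (chr7:27499074-27499323, plus strand) holds an EGR core on the minus strand, 107 to 101 bases before the start. S100b (chr10:76253586-76253835, plus strand) holds a SOX core on the minus strand, 250 to 245 bases before the start. Of the 4 Pmp22 starts listed none holds either core, and the first (chr11:63128732-63128981) and the last (chr11:63132553-63132802), both on the plus strand, are printed. A match describes the letters only, and its absence says no more than that these letters are not in this window.
Prx: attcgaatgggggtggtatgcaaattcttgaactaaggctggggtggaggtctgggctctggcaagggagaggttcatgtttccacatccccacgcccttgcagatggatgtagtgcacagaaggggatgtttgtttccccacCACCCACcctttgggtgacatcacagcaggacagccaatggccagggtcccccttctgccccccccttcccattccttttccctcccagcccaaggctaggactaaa
S100b: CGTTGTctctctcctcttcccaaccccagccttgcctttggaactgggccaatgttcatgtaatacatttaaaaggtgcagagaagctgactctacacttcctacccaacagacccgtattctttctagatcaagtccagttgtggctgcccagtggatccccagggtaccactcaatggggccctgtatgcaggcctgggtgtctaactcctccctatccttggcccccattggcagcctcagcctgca
Pmp22, first start: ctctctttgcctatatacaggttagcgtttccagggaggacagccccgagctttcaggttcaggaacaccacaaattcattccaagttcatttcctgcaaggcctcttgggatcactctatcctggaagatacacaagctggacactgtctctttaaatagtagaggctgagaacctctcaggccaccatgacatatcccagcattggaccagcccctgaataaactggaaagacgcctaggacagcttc
Pmp22, last start: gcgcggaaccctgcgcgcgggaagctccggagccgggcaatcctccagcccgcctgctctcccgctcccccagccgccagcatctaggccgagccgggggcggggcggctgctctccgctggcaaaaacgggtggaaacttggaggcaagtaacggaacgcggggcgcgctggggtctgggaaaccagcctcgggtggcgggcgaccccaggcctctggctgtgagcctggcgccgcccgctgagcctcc

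None of the 5 measured markers rose in muscle of tumour-bearing mice. S100b and Pmp22 fell in splenic C26 against sham, and Sox10, Pmp22, Prx and S100b fell in subcutaneous C26 against control. Mbp passed in neither. With edgeR's quasi-likelihood test and Benjamini-Hochberg adjustment over all genes at 0.05, that is 2 of 5 in splenic C26, where 23.9% of all genes fell (52.0% changed in either direction), and 4 of 5 in subcutaneous C26, where 23.1% of all genes fell (50.0% changed in either direction). Splenic C26 values lay entirely below the sham values for 1 of the 5, S100b, against 21.1% of all genes, and subcutaneous C26 values lay entirely below the control values for 4 of the 5, all except Pmp22, against 20.7% of all genes. The median log2 fold change of the 5 was -0.53 in splenic C26 and -0.80 in subcutaneous C26, beside medians of -0.03 and -0.02 over all genes. Upper-quartile scaling moved these medians over all genes to -0.24 and -0.26 and called 3 of the 5 in splenic C26 and 5 of the 5 in subcutaneous C26. In whole muscle, fewer cells of a type and less RNA per cell cannot be told apart.

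**Figure D1:**
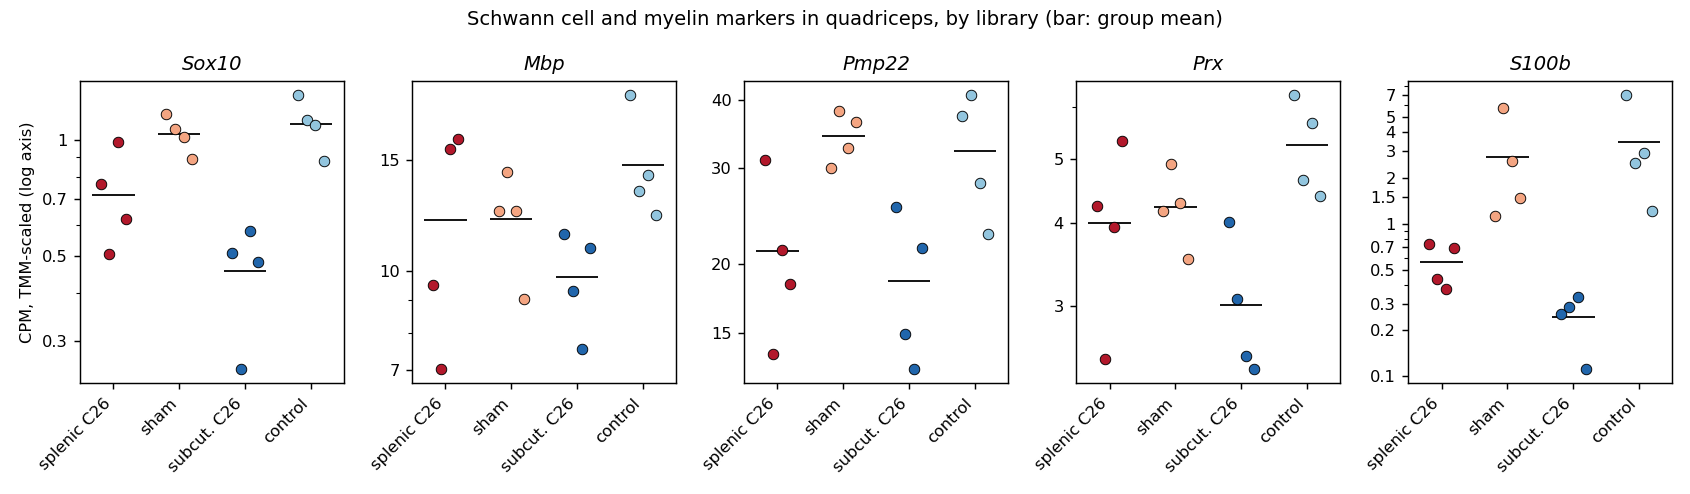
CPM (TMM-scaled, log axis) of the 5 measured markers in each library, with points for libraries and a bar at the mean of the 4 libraries of a group. The splenic C26 points of S100b lie between 0.376 and 0.734 CPM, all below the sham points, whereas those of Mbp lie between 7.01 and 16.2 CPM, on both sides of the sham points.

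Sox10, the transcription factor that defines Schwann cells and drives their myelin genes, lies on chromosome 15 (mm10, 79154908 to 79165240, minus strand). It had 0.77, 0.51, 0.99 and 0.62 CPM in splenic C26 libraries, against 1.16, 1.07, 1.02 and 0.89 CPM in sham libraries. Splenic C26 replicates 1, 2 and 4 lay below every sham library and replicate 3 lay within the sham range. The log2 fold change was -0.53 ± 0.28 (SE; 95% interval -1.13 to 0.07; edgeR adjusted p = 0.128), which did not pass; it passed with upper-quartile scaling (-0.74, adjusted p = 0.0448) and in the fit without 4 libraries (-0.86, adjusted p = 0.0493). In subcutaneous C26 libraries Sox10 had 0.51, 0.25, 0.58 and 0.48 CPM, against 1.31, 1.12, 1.09 and 0.88 CPM in control libraries. Every subcutaneous C26 value was below every control value, with replicate 2 lowest. Sox10 fell to 41.3% of control (log2 fold change -1.27 ± 0.29, edgeR adjusted p = 0.00267). These levels rest on 8 to 51 reads per library, so counting error is a large part of the spread.

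Among the myelin proteins Mbp, the myelin basic protein that compacts the inner faces of the sheath in both peripheral and central myelin, lies on chromosome 18 (82475146 to 82585637, plus strand) with 16 annotated transcripts, which the counts pool. It had 9.51, 7.01, 15.6 and 16.2 CPM in splenic C26 libraries, against 12.4, 14.3, 12.5 and 9.05 CPM in sham libraries. The splenic C26 libraries fell into a low and a high pair on either side of 3 of the sham libraries. The means were 12.07 ± 4.52 CPM in splenic C26 and 12.07 ± 2.2 CPM in sham (SD, n = 4 each), and the 95% interval of the log2 fold change ran from -0.52 to 0.52 (edgeR adjusted p = 0.992). Changes within that interval could not be told from none. In subcutaneous C26 libraries Mbp had 11.5, 9.30, 7.54 and 10.9 CPM, against 19.0, 13.4, 14.2 and 12.3 CPM in control libraries. The groups did not overlap, but the highest subcutaneous C26 value was close to the lowest control value. The log2 fold change was -0.59 ± 0.24 and missed the threshold (edgeR adjusted p = 0.0577); it passed with upper-quartile scaling (-0.83, adjusted p = 0.00997), with DESeq2 (-0.59, adjusted p = 0.0459) and with only the 8 libraries compared (-0.59, adjusted p = 0.0229).

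Pmp22, the peripheral myelin protein whose gene dosage is altered in the commonest human demyelinating neuropathy, lies on chromosome 11 (63128982 to 63159547, plus strand) and is also expressed in fibroblasts. It had 31.1, 13.7, 21.2 and 18.4 CPM in splenic C26 libraries, against 30.0, 38.2, 32.6 and 36.5 CPM in sham libraries. Splenic C26 replicate 1 stood at the level of the lowest sham library and the other 3 were well below. Pmp22 fell to 61.5% of sham (log2 fold change -0.70 ± 0.26, edgeR adjusted p = 0.0318). The call was lost when sham replicate 2 or 4 or splenic C26 replicate 2, 3 or 4 was left out, with adjusted p-values of 0.0604 to 0.0942 and log2 fold changes of -0.54 to -0.70. Subcutaneous C26 libraries had 25.5, 14.9, 12.8 and 21.4 CPM, against 37.3, 40.9, 28.2 and 22.7 CPM in control libraries. Subcutaneous C26 replicate 1 exceeded control replicate 4, so the groups overlapped. Pmp22 fell to 57.8% of control (log2 fold change -0.79 ± 0.26, edgeR adjusted p = 0.0191), a call lost without control replicate 2 (log2 fold change -0.67, adjusted p = 0.0598) or subcutaneous C26 replicate 2 (log2 fold change -0.73, adjusted p = 0.0578). Fibroblast genes moved beside it: 5 of 7 fell in splenic C26 and 4 of 7 fell, with 1 higher, in subcutaneous C26, beside 23.9% of all genes lower and 28.1% higher in splenic C26 and 23.1% lower and 27.0% higher in subcutaneous C26. Their sum was 385 to 1319 CPM in splenic C26 (highest in replicate 1) against 1531 to 1901 CPM in sham, and 443 to 841 CPM in subcutaneous C26 against 1190 to 2172 CPM in control. Their part in the Pmp22 result was not tested.

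Prx encodes periaxin, a scaffold of the outer Schwann cell membrane that ties the sheath to the basal lamina; it lies on chromosome 7 (27499324 to 27520214, plus strand), shares 300 exon bases with the antisense gene Gm15541, and is also found in endothelium. It had 4.24, 2.49, 3.95 and 5.32 CPM in splenic C26 libraries, against 4.17, 4.92, 4.29 and 3.53 CPM in sham libraries. The splenic C26 values surrounded the sham values. The log2 fold change was -0.08 ± 0.23 (95% interval -0.57 to 0.41, edgeR adjusted p = 0.784). In subcutaneous C26 libraries Prx had 4.01, 3.08, 2.53 and 2.41 CPM, against 6.25, 4.65, 5.67 and 4.40 CPM in control libraries. No value overlapped, and replicate 1 of subcutaneous C26 came nearest to control. Prx fell to 57.5% of control (log2 fold change -0.80 ± 0.23, edgeR adjusted p = 0.0106), but did not pass in the fit without 4 libraries (-0.62, adjusted p = 0.0872). Of 8 endothelial genes 5 rose and 1 fell in splenic C26, while 1 rose and 3 fell in subcutaneous C26. Over all genes 28.1% rose and 23.9% fell in splenic C26, and 27.0% rose and 23.1% fell in subcutaneous C26. The sum of the 8 was 230 to 422 CPM in splenic C26 against 243 to 303 CPM in sham, and 178 to 236 CPM in subcutaneous C26 against 302 to 339 CPM in control. Their part in the Prx values was not tested.

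S100b, a calcium-binding protein used as a general Schwann cell marker and also made by adipocytes, lies on chromosome 10 (76253853 to 76261159, plus strand) and showed the largest fold change of the 5 in both tumour comparisons. It had 0.73, 0.43, 0.38 and 0.70 CPM in splenic C26 libraries, against 1.13, 5.78, 2.60 and 1.47 CPM in sham libraries. All splenic C26 values were below all sham values, and the sham libraries spread over 5.13-fold. S100b fell to 20.7% of sham (log2 fold change -2.27 ± 0.57, edgeR adjusted p = 0.00462). In subcutaneous C26 libraries it had 0.25, 0.29, 0.33 and 0.11 CPM, against 7.02, 2.52, 2.91 and 1.22 CPM in control libraries. Again no value overlapped, and the control libraries spread over 5.75-fold. S100b fell to 7.27% of control (log2 fold change -3.78 ± 0.63, edgeR adjusted p = 0.000357). The tumour libraries held 8 to 23 reads in splenic C26 and 3 to 9 reads in subcutaneous C26, so their levels are imprecise. Each gene of the count table exceeded 0.5 CPM in 4 or more libraries. S100b could not have done so without tumour-free libraries, so a fall was favoured in advance. The call held when any 1 library was left out, with log2 fold changes of -2.53 to -1.60 in splenic C26 and -4.06 to -3.17 in subcutaneous C26.

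Within each tumour-free group, S100b was high where the adipocyte gene Plin1 was high. Plin1, which coats the lipid droplet of adipocytes, had 15.5, 12.3, 5.45 and 4.97 CPM in splenic C26 libraries, against 8.92, 167, 48.9 and 30.8 CPM in sham libraries. In subcutaneous C26 libraries Plin1 had 30.9, 15.4, 44.9 and 8.78 CPM, against 113, 49.6, 41.0 and 26.2 CPM in control libraries. Sham replicates 2 and 1 held the most and the least of both Plin1 and S100b, and so did control replicates 1 and 4. Plin1 fell in splenic C26 (log2 fold change -2.73 ± 0.78, edgeR adjusted p = 0.00936) and did not pass in subcutaneous C26 (-1.2 ± 0.73, adjusted p = 0.182). Of the 6 adipocyte genes 1, Plin1, fell in splenic C26 and none rose. In subcutaneous C26 1 fell, the leptin gene Lep (-2.33 ± 0.84, adjusted p = 0.0316), 1 rose, the complement factor gene Cfd (1.54 ± 0.60, adjusted p = 0.0434), and 4 did not pass. One of these 4, the adipokine gene Adipoq, had 123, 74.5, 96.2 and 63.7 CPM in subcutaneous C26, against 121, 61.1, 43.6 and 29.0 CPM in control. There the ranges of Adipoq and of Lep overlapped and those of S100b did not. The sum of the 6 adipocyte genes was 213 to 653 CPM in splenic C26 against 68.9 to 887 CPM in sham, and 519 to 910 CPM in subcutaneous C26 against 164 to 613 CPM in control. The part of adipocytes in the S100b values was not tested.

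**Figure D2:**
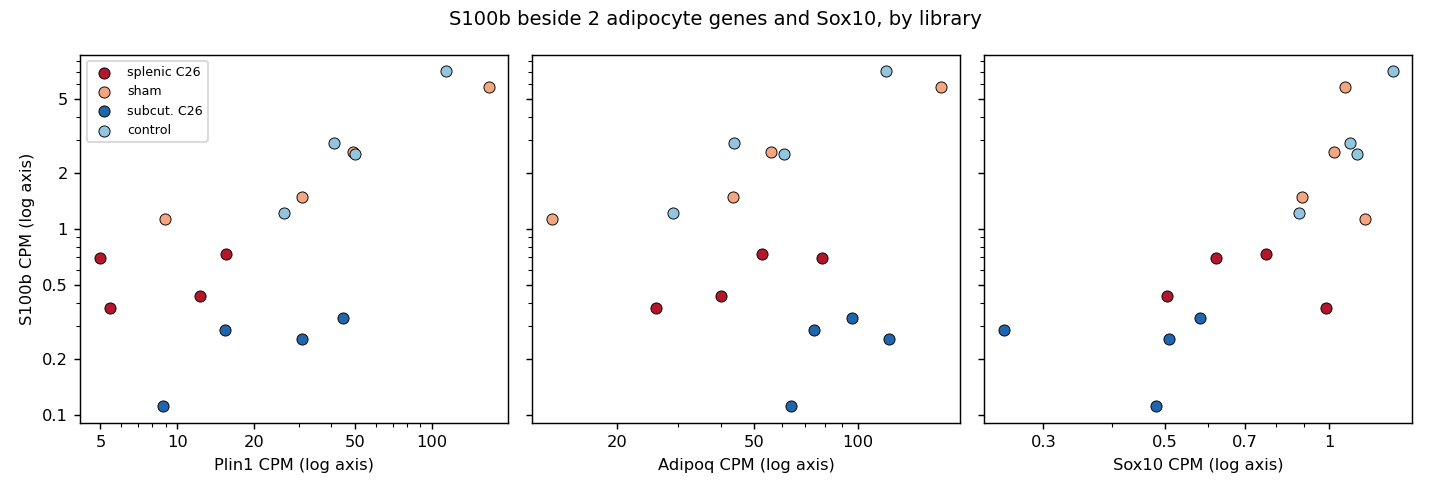
S100b against Plin1, Adipoq and Sox10 in each library, all in CPM (TMM-scaled) on log axes, with one point per library coloured by group. The subcutaneous C26 points hold 63.7 to 123 CPM of Adipoq, within the range of the tumour-free libraries, and 0.11 to 0.33 CPM of S100b, below all of them.

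For none of the 5 did the test of a difference between the tumours pass, and the intervals are wide. The difference, splenic C26 against sham minus subcutaneous C26 against control, was 0.75 for Sox10 (95% interval -0.11 to 1.61), 0.58 for Mbp (-0.15 to 1.32), 0.09 for Pmp22 (-0.68 to 0.86), 0.72 for Prx (0.03 to 1.41) and 1.51 for S100b (-0.26 to 3.27), all on the log2 scale. The 5 estimates were positive, but that of Pmp22 turned negative in the fit without 4 libraries (-0.28) and when splenic C26 replicate 1 (-0.13), control replicate 2 (-0.022) or subcutaneous C26 replicate 3 (-0.052) was left out. The lowest edgeR adjusted p was 0.768, for Prx. Over all genes 0% passed this test (0 of 13320), 851 had an unadjusted p under 0.05, and DESeq2 called 86 genes and 0 of the 5.

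**Figure D3:**
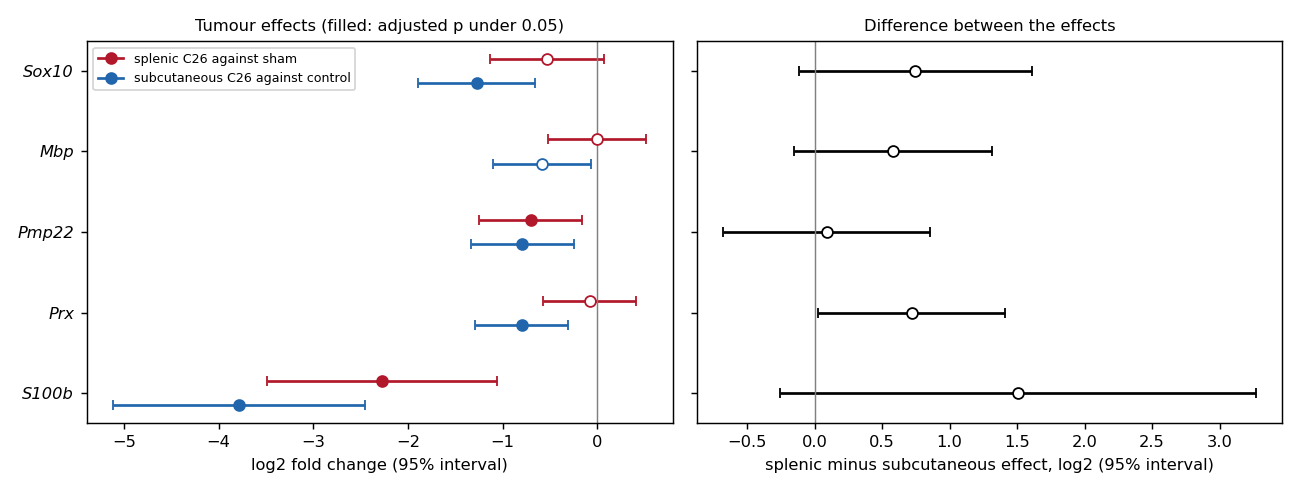
Log2 fold changes of the 5 markers with 95% intervals, for each tumour against its tumour-free group on the left (splenic C26 red, subcutaneous C26 blue, filled where the adjusted p was under 0.05) and for the difference between both effects on the right. All 5 differences lie right of 0 and none passed.

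The tumour-free groups were also compared with each other, and none of the 5 passed. Sham against control gave log2 fold changes of -0.09 for Sox10 (95% interval -0.67 to 0.49), -0.29 for Mbp (95% interval -0.80 to 0.23), 0.09 for Pmp22 (95% interval -0.45 to 0.63), -0.31 for Prx (95% interval -0.80 to 0.17) and -0.32 for S100b (95% interval -1.41 to 0.78), each with an edgeR adjusted p of 1.0. Over all genes 0.00751% (1 of 13320) passed in this comparison and 285 had an unadjusted p under 0.05; DESeq2 called 58 genes and 0 of the 5.

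Set per kb of annotated exon, Pmp22 was the most abundant of the 5, with 8.97 ± 3.11 CPM per kb in splenic C26 and 14.6 ± 1.57 CPM per kb in sham, and 7.93 ± 2.48 CPM per kb in subcutaneous C26 and 13.7 ± 3.54 CPM per kb in control (SD, n = 4 each). Mbp came to 1.42 ± 0.53 CPM per kb in splenic C26 and 1.42 ± 0.26 CPM per kb in sham, and to 1.16 ± 0.21 CPM per kb in subcutaneous C26 and 1.74 ± 0.35 CPM per kb in control. S100b overlapped Mbp in the tumour-free groups, at 0.760 to 3.89 CPM per kb in sham and 0.822 to 4.73 CPM per kb in control, and lay under it in both tumour groups, at 0.253 to 0.495 CPM per kb in splenic C26 and 0.0749 to 0.223 CPM per kb in subcutaneous C26. Prx followed Mbp with 0.717 ± 0.209 CPM per kb in splenic C26 and 0.758 ± 0.102 CPM per kb in sham. Sox10 had the lowest mean in all 4 groups, at 0.339 ± 0.037 CPM per kb in sham and 0.361 ± 0.057 CPM per kb in control. In the tumour groups it had 0.236 ± 0.068 CPM per kb (splenic C26) and 0.1495 ± 0.046 CPM per kb (subcutaneous C26). There its range overlapped that of S100b, whose means were 0.378 and 0.166 CPM per kb. The exon length pools all annotated isoforms, so these levels are approximate.

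Ratios of counts within a library do not depend on the scaling. Mbp stood to Prx at a median of 2.92 in splenic C26 and 2.91 in sham, and of 3.0 in subcutaneous C26 and 2.83 in control, with ranges that overlapped throughout. The ratio of Sox10 to Mbp was 0.0385 to 0.0805 in splenic C26 against 0.0744 to 0.0985 in sham, and 0.0273 to 0.0769 in subcutaneous C26 against 0.0688 to 0.0841 in control. It was lower at the median in both tumour groups, and both pairs overlapped. Pmp22 to Prx was 3.47 to 7.32 in splenic C26 against 7.20 to 10.3 in sham, whereas subcutaneous C26 (4.84 to 8.91) and control (4.98 to 8.80) covered nearly the same range. Prx to S100b did not overlap in either pair, with 5.75 to 10.5 in splenic C26 against 0.851 to 3.70 in sham, and 7.63 to 21.7 in subcutaneous C26 against 0.891 to 3.61 in control.

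Of the 5 markers, Mbp and Prx also had the smallest difference between profiles over the 16 libraries. Likeness was the root mean square difference of log2 CPM after each gene's own mean was taken off, over 12695 genes with a full symbol, and is given as a description with no test. It grows with a gene's own spread, so it does not rank likeness between markers of unequal spread. Mbp and Prx differed by 0.22, and 3 genes lay nearer to Mbp than Prx did: Usp6nl and Bhlhe40 (0.21 each) and Arsg (0.22). The genes nearest to Prx were Arsg (0.17), Ext1 (0.21) and Trim2 (0.22). For Sox10 they were Mdk (0.21), Cdkn1c (0.22) and Ankrd50 (0.23), with 438 genes nearer than its closest marker, Pmp22. For Pmp22 they were Clip2 (0.15), Coro1c (0.17) and Serinc5 (0.18), with 587 genes nearer than Sox10. For S100b, whose own log2 profile had an SD of 1.52 against 0.38 to 0.55 for the other markers, they were Acot11 (0.36), Pnldc1 (0.60) and Sorcs2 (0.61).

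A wider list of 35 Schwann cell genes, of which 29 were measured, was read beside the markers. Over all genes 23.9% fell and 28.1% rose in splenic C26, and 23.1% fell and 27.0% rose in subcutaneous C26. In splenic C26 5 fell, 4 rose and 20 did not pass, with a median log2 fold change of -0.30, beside -0.03 over all genes. In subcutaneous C26 15 fell, 4 rose and 10 did not pass, with a median of -0.82, beside -0.02 over all genes. Of the 10 myelin and paranode genes 3 fell in splenic C26 (Cnp, Pllp, Gjc3) and 8 in subcutaneous C26, and none rose in either; the splenic C26 count is near the 23.9% of all genes that fell there. Both measured enzymes of myelin lipids, Ugt8a and Fa2h, fell in subcutaneous C26 (log2 fold changes -2.70 and -1.87), and neither passed in splenic C26 (-0.97 and 0.12). The subcutaneous C26 libraries held 0 to 5 reads of Ugt8a and 1 to 8 reads of Fa2h. Every gene of the count table exceeded 0.5 CPM in 4 or more libraries. Ugt8a, Pllp, Gjc3 and Gldn reached at most 0.415, 0.333, 0.350 and 0.470 CPM in tumour libraries, so they entered through tumour-free libraries. Fa2h, Ncmap and Gjb1 reached at most 0.255, 0.370 and 0.318 CPM in subcutaneous C26. Their lowest splenic C26 values were 0.233, 0.289 and 0 CPM, so they too could not have entered without tumour-free libraries. For such genes a fall was favoured in advance, and the counts of falls include them. Of 8 regulators and receptors, Lgi4 fell and Ngfr, the low-affinity neurotrophin receptor, rose in both tumour groups. Egr2 had log2 fold changes of 0.03 ± 0.53 in splenic C26 (edgeR adjusted p = 0.969) and -1.76 ± 0.55 in subcutaneous C26 (adjusted p = 0.0155), and the difference did not pass (adjusted p = 0.734). Of 4 genes of non-myelinating Schwann cells 0 passed in splenic C26 and 1, Cdh19 (-1.10), fell in subcutaneous C26.

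Of the 5 genes with the smallest p in each tumour comparison, 4 were shared: Cnp, Lgi4, Nfasc and Jun. Cnp, an enzyme of the uncompacted myelin channels, had 6.35, 3.58, 2.87 and 3.30 CPM in splenic C26 libraries, against 9.91, 10.1, 10.4 and 10.3 CPM in sham libraries. In subcutaneous C26 libraries Cnp had 5.0, 3.27, 5.14 and 3.93 CPM, against 9.25, 9.56, 10.4 and 8.61 CPM in control libraries. Neither pair of groups overlapped, and splenic C26 replicate 1 was nearest to sham. Cnp fell in both tumour groups, with log2 fold changes of -1.33 ± 0.22 (edgeR adjusted p = 0.000321) in splenic C26 and -1.13 ± 0.22 (adjusted p = 0.000904) in subcutaneous C26. Its exons share 154 bases with Dnajc7 on the other strand, and the strand setting of the counts is not given in the sources used here. Lgi4, a protein secreted by Schwann cells that is needed for myelination, had log2 fold changes of -1.27 ± 0.31 (adjusted p = 0.00419) in splenic C26 and -1.57 ± 0.32 (adjusted p = 0.00123) in subcutaneous C26, and shares 2059 exon bases with Fxyd3 on the other strand. The fifth was Pllp, a proteolipid of myelin, in splenic C26 and Gldn, a Schwann cell ligand that gathers sodium channels at the node, in subcutaneous C26. Pllp had log2 fold changes of -1.73 ± 0.48 in splenic C26 (adjusted p = 0.00772) and -1.38 ± 0.47 in subcutaneous C26 (adjusted p = 0.0248), the second lost without control replicate 1 (-1.10, adjusted p = 0.0836), with only 8 libraries (adjusted p = 0.0530) and in the fit without 4 libraries (adjusted p = 0.0715). Gldn had -0.95 ± 0.52 in splenic C26 (adjusted p = 0.1303) and -2.63 ± 0.57 in subcutaneous C26 (adjusted p = 0.00185), and the difference did not pass (adjusted p = 0.768). Pllp did not overlap between groups in either pair, with 1 to 10 reads per tumour library, and it shares 1128 exon bases with the antisense gene Gm45767. Gldn overlapped between splenic C26 and sham libraries and not between subcutaneous C26 libraries, with 1 to 8 reads, and control libraries, with 10 to 40 reads.

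Of the 4 shared genes, Nfasc and Jun rose. Nfasc, neurofascin, which organises nodes and paranodes and is also made by neurons, had 2.43, 2.02, 1.93 and 3.07 CPM in splenic C26 libraries, against 0.649, 0.593, 0.295 and 0.652 CPM in sham libraries. Every splenic C26 value exceeded every sham value. Its log2 fold change was 2.112 ± 0.33 (edgeR adjusted p = 0.000242) in splenic C26 and 2.45 ± 0.33 (adjusted p = 0.000101) in subcutaneous C26. Jun, which rises in Schwann cells after nerve injury but is expressed in most cells, had log2 fold changes of 0.89 ± 0.20 (adjusted p = 0.00252) in splenic C26 and 1.43 ± 0.21 (adjusted p = 0.000158) in subcutaneous C26, at 72.6 to 349 CPM over all libraries. Of the 3 measured genes of Schwann cells after nerve injury, Jun and Gdnf rose and Btc fell in both tumour groups (for Gdnf close to the threshold, with edgeR adjusted p = 0.0448 in splenic C26 and 0.0495 in subcutaneous C26), and Shh, Olig1 and Artn had no row. Over all genes 28.1% rose and 23.9% fell in splenic C26, and 27.0% rose and 23.1% fell in subcutaneous C26. A list of 3 genes is too short to set beside these shares. Gjb1, a gap junction protein of myelin and of hepatocytes, fell in subcutaneous C26 (-3.70 ± 0.99, adjusted p = 0.00695), with at most 0.318 CPM there against 0.436 to 3.35 CPM in control. The highest Gjb1 value was 0.137 CPM in sham and 0.543 CPM in splenic C26 libraries, where the mean was 0.181 CPM. Gjb1 could not have exceeded 0.5 CPM in 4 libraries without control libraries, so this fall was favoured in advance. The control libraries also carried hepatocyte genes, and their part in the Gjb1 result was not tested.

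**Figure D4:**
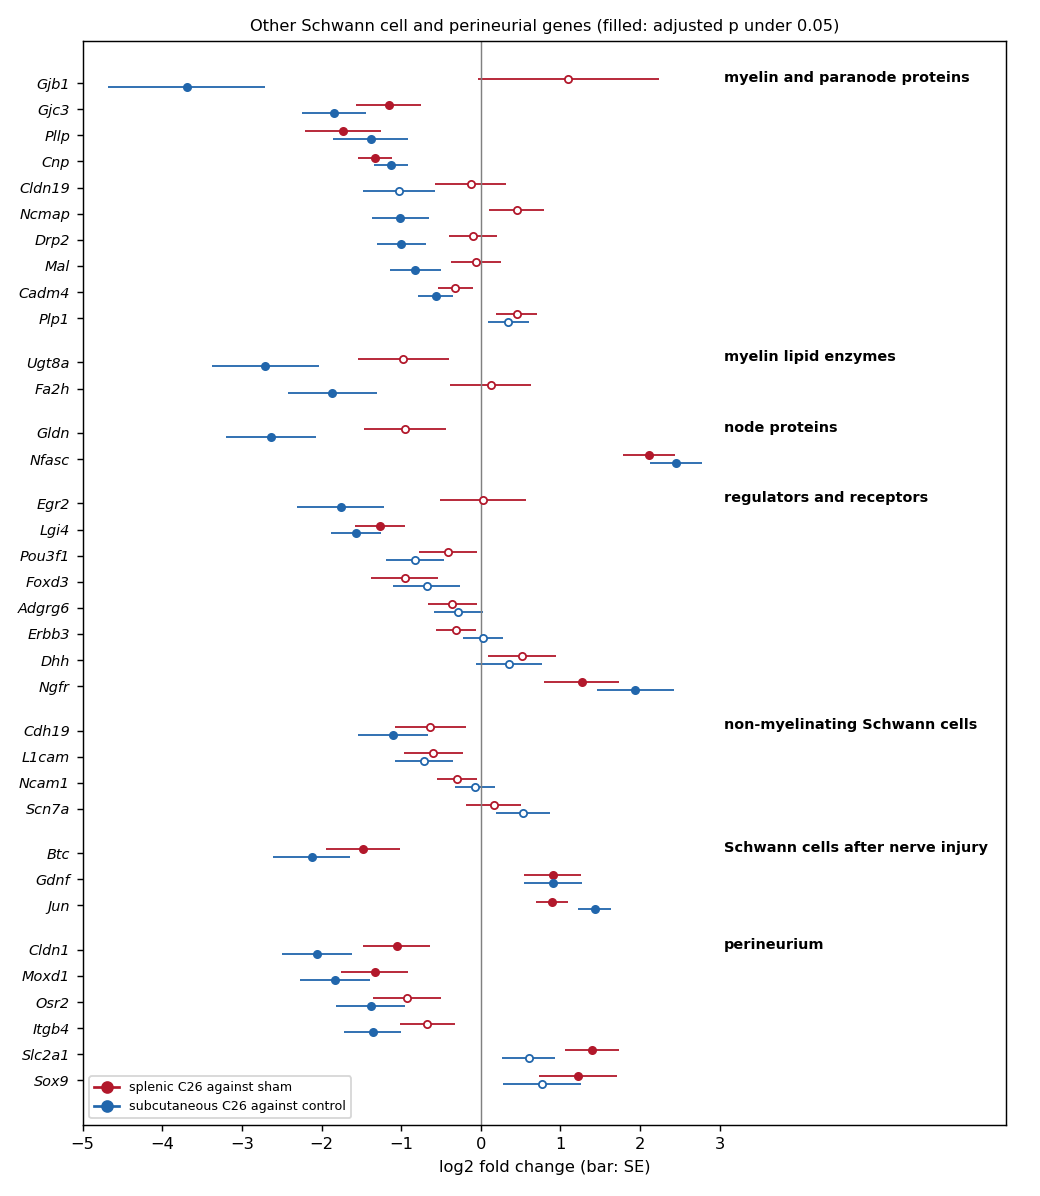
Log2 fold changes with SE of 29 further Schwann cell genes, by role, and 6 perineurial genes, in splenic C26 against sham (red) and subcutaneous C26 against control (blue), filled where the adjusted p was under 0.05. Among myelin and paranode genes 3 red and 8 blue points are filled, all left of 0, whereas Nfasc, Ngfr, Jun and Gdnf lie right of 0 in both colours.

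Around the Schwann cells, the perineurium sheathes each nerve bundle. Of its 6 measured genes Cldn1, a tight junction protein, and Moxd1 fell in both tumour groups, with log2 fold changes of -1.06 and -1.33 in splenic C26 and -2.06 and -1.83 in subcutaneous C26. The integrin gene Itgb4 (-1.36) and the transcription factor gene Osr2 (-1.38) fell in subcutaneous C26. In splenic C26 they had -0.67 ± 0.35 (edgeR adjusted p = 0.118) and -0.93 ± 0.43 (adjusted p = 0.0797). Without splenic C26 replicate 1 both fell there, with log2 fold changes of -1.18 for Itgb4 (adjusted p = 0.00255) and -1.82 for Osr2 (adjusted p = 8.4e-05), and so they did in the fit without 4 libraries (adjusted p = 0.0158 and 0.00081) and with limma-voom (adjusted p = 0.0433 and 0.0169); Osr2 also fell with limma-trend on the deposited values (adjusted p = 0.0147). The glucose transporter gene Slc2a1 (1.40) and Sox9 (1.22) rose in splenic C26, and neither passed in subcutaneous C26 (0.61 and 0.77). In splenic C26 2 of the 6 fell and 2 rose, near the 23.9% of all genes that fell and the 28.1% that rose. In subcutaneous C26 4 of the 6 fell and 0 rose, beside 23.1% and 27.0% of all genes. Moxd1 reached 0.574 CPM in splenic C26, with the next library at 0.282 CPM, and at most 0.414 CPM in subcutaneous C26. It rested there on 4 to 18 and 3 to 13 reads. It could not have exceeded 0.5 CPM in 4 libraries without tumour-free libraries, so its fall was favoured in advance, and the counts of falls include it. The Cldn1 and Sox9 calls in splenic C26 are near the threshold (edgeR adjusted p = 0.0462 and 0.0477) and both were lost in the fit without 4 libraries (adjusted p = 0.0573 and 0.0580) and in 6 of the 8 fits that left out 1 library of these groups. Both Slc2a1 and Sox9 are broadly expressed, and their splenic C26 values split into replicates 3 and 4 (22.3 and 31.6 CPM of Slc2a1, 15.8 and 20.9 CPM of Sox9) above replicates 1 and 2 (8.58 and 10.4 CPM of Slc2a1, 4.24 and 4.26 CPM of Sox9). Of 6 neurotrophic ligand genes 3 were measured, too few to set beside these shares. Ntf3 and Ntf5, which muscle supplies to nerve, fell in both tumour groups, with log2 fold changes of -1.59 and -2.03 in splenic C26 and -1.196 and -1.89 in subcutaneous C26. Bdnf rose in splenic C26 (2.27 ± 0.34, adjusted p = 0.000204) and did not pass in subcutaneous C26 (0.26 ± 0.33, adjusted p = 0.543), and the difference between these effects did not pass either (adjusted p = 0.158).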

How the data were processed

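Messenger RNA of quadriceps was read in 75-base pairs on a HiSeq instrument; all samples were extracted and sequenced together, per the labels. The authors deposited raw read counts for each gene symbol, produced by STAR and featureCounts per the labels. The submitters' processing notes name FastQC, STAR, edgeR and mm10. Versions, gene annotation and use of strand were not given in the sources used here. A further deposited table, of log2 values that followed log2 CPM, served as a second unit. Lines with a blank gene name (4013) carried no value and were dropped, which left 13320 genes, each over 0.5 CPM in 4 or more libraries.

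Tests ran in edgeR 4.0.16 under R 4.3.3: TMM scaling, the robust quasi-likelihood model with a mean for each of the 4 groups, and Benjamini-Hochberg adjustment over all genes at 0.05. They were tested on simulated data. Within each group, pairs of libraries had a chi-square per degree of freedom of 12.9 or more, so each counted as a sample. That does not show that each came from an animal of its own. Of the symbols, 12868 (96.6%) had a GENCODE M21 entry, used for mm10 positions and exon lengths; promoters are from RefSeq (GRCm38.p6).

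Groups follow the tumour label, and replicate numbers only name libraries. The markers, the lists and the omission of 4 libraries were chosen with earlier results of these data known. Named genes were the 6 markers, up to 5 genes of smallest p in the wider Schwann and perineurial lists for each tumour comparison, and the 3 nearest profiles of each marker; 1 listed gene is not reported here. Gjc3, Ncmap, Ugt8a, Fa2h, Egr2, Ngfr, Cdh19, Gdnf, Btc, Gjb1, the ligands, Plin1, Lep, Cfd and Adipoq were named after their values were seen, to account for their groups. Alternatives were RLE and upper-quartile scaling, filterByExpr (which removed 0 genes) and a minimum of 1 CPM in 4 libraries, removal of the 10 most abundant genes, DESeq2 1.42.0, voom and trend in limma 3.58.1, a threshold of 0.01, fits of 8 libraries, the fit without 4 libraries and omission of each library.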

Additional observations from a re-analysis of the deposited data

Results flagged for a closer look

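Each of 17 genes was looked at in each of the 4 groups, 68 sets of 4 values, for a library far from the other 3, and 6 sets held one; chance gives about 1 in 20. None was a Schwann cell marker of the 5 measured. Nfasc stood low in sham replicate 3 at 0.295 CPM, with the next library at 0.593 CPM. Pllp, with 1 to 10 reads per tumour library, stood low in splenic C26 replicate 4 at 0.116 CPM, with the next at 0.253 CPM, and in subcutaneous C26 replicate 2 at 0.0317 CPM, with the next at 0.290 CPM. Cldn1 stood low in control replicate 4 at 1.86 CPM, with the next at 3.25 CPM. Osr2 stood high in splenic C26 replicate 1 at 2.87 CPM, with the next at 0.686 CPM, and this library also had the highest sum of fibroblast genes of its group (1319 CPM). Osr2 also stood high in subcutaneous C26 replicate 1 at 1.40 CPM, with the next at 0.828 CPM.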

How the results depend on the processing

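No paired analysis was possible because the labels give no shared replicate numbers. At an adjusted p under 0.01, 4408 genes and 1 marker passed in splenic C26, 4175 genes and 2 markers in subcutaneous C26, and 0 genes in sham against control. DESeq2 called 86 genes in the difference and 58 in sham against control; sham against control had 7 with limma-trend on the deposited values, 0 with only 8 libraries and 47 in the fit without 4 libraries. Upper-quartile scaling moved the median over all genes to -0.24 in splenic C26 and -0.26 in subcutaneous C26, turned the split to 2749 higher and 4384 lower in splenic C26 (in place of 3745 and 3186) and 2412 and 4509 in subcutaneous C26 (in place of 3593 and 3072), and called 3 and 5 markers. Mbp in splenic C26, near 0, turned positive with RLE scaling (0.022), DESeq2 (0.022), the 10 most abundant genes removed (0.0083) and only 8 libraries (0.0033). Without 4 libraries the Pmp22 difference was -0.28, and sham against control was 0.0020 for Sox10 and 0.32 for S100b. With 1 library left out, markers called were 1 to 2 in splenic C26, 3 to 4 in subcutaneous C26 and 0 otherwise; genes called were 5745 to 8201, 5061 to 7547, 0 to 66 for the difference (66 without splenic C26 replicate 2) and 0 to 7 for sham against control; log2 fold changes ran from -0.17 to 0.19 for Mbp and -0.24 to 0.092 for Prx in splenic C26, -0.13 to 0.30 for the Pmp22 difference, and -0.047 to 0.22 for Pmp22, -0.18 to 0.0022 for Sox10 and -0.99 to 0.32 for S100b in sham against control. The causes were not tested. The call of S100b in both tumours and of Sox10 in subcutaneous C26 passed under every alternative at 0.05.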
